A study of Marchantia polymorpha with 6 samples.

Results

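MpCSLD7 (Mp5g24530), MpCE8.5 (Mp2g19430) and MpGH16.30 (Mp4g00700) are cell wall enzyme genes of the liverwort Marchantia polymorpha, and all 3 were found among the 19472 genes counted in each library. They were picked by name from earlier results of these data because their reads were more frequent in plants grown with arsenite. Their difference between arsenite and control is therefore a description and carries no test. RNA with poly(A) tails was sequenced from thallus, the flat plant body. The genotype is given as Cam1, which is a wild-type male line, and the growth temperature was 21 °C. In the arsenite group (n = 3) the half-strength Gamborg medium was supplied with sodium arsenite, in which arsenic is trivalent, at 2.5 µM, and in the control group (n = 3) it held none. The sources used here give no duration of growth, plant age or number of plants per sample. Nothing says that the samples of a group came from separate cultures, so the spread between them may be partly technical.

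The primary wall of a plant cell is a mesh of cellulose fibres set in hemicelluloses and pectins. Cellulose synthase-like D (CSLD) proteins are membrane enzymes that make cellulose-like glucan chains, and in Arabidopsis some are needed for the tip growth of root hairs. Pectin methylesterases, carbohydrate esterase family CE8, remove methyl groups from the pectin homogalacturonan inside the wall, which changes how pectin binds calcium and how easily it is cut. Glycoside hydrolase family GH16 includes the plant enzymes that cut and rejoin xyloglucan, together with other glucan-cleaving enzymes, and the sources used here do not give which of these activities MpGH16.30 has.

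MpCSLD7, the cellulose synthase-like D gene, had 1652, 1577 and 1528 reads with arsenite (libraries in the order of replicates 1, 2 and 3, as in all lists of values below), against 1348, 773 and 947 reads in controls. Scaled to CPM, reads per 1000000 on tested genes with library sizes adjusted by TMM factors, this was 52.7, 53.4 and 58.7 CPM with arsenite and 27.6, 29.5 and 29.7 CPM in controls. The arsenite libraries lay close together, as did the controls, and the groups did not overlap. Its mean was 54.9 ± 3.28 CPM with arsenite and 29.0 ± 1.15 CPM in controls (SD, n = 3 each). The log2 fold change, arsenite over control, was 0.92 ± 0.10 (SE), a 1.90-fold higher level.

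MpCE8.5, of the pectin methylesterase family, was far more abundant in reads. Arsenite libraries held 24621, 26331 and 18970 of its reads, and control libraries 14162, 11270 and 11737. Its levels were 786, 891 and 729 CPM with arsenite and 290, 431 and 368 CPM in controls. Arsenite replicate 2 was the highest library and control replicate 1 the lowest, and the groups did not overlap. The mean was 802 ± 82.4 CPM with arsenite and 363 ± 70.3 CPM in controls (SD, n = 3 each), which is 2.21-fold, or 1.14 ± 0.17 (SE) as a log2 fold change.

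MpGH16.30, the GH16 gene, had 698, 529 and 413 reads with arsenite and 264, 234 and 186 reads in controls. This was 22.3, 17.9 and 15.9 CPM with arsenite and 5.41, 8.94 and 5.83 CPM in controls. Control replicate 2 was the highest control and arsenite replicate 3 the lowest arsenite library, and they did not overlap. Means were 18.7 ± 3.27 CPM with arsenite and 6.73 ± 1.93 CPM in controls (SD, n = 3 each), with a log2 fold change of 1.48 ± 0.24 (SE), or 2.79-fold. The lowest arsenite library lay 1.78-fold above the highest control for MpCSLD7, 1.69-fold for MpCE8.5 and 1.77-fold for MpGH16.30. Groups that do not overlap, with the arsenite libraries higher, were found for 13.8% of the 13544 tested genes, and nothing is read from the members' own separation because it is what they were chosen for.

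**Figure D1:**
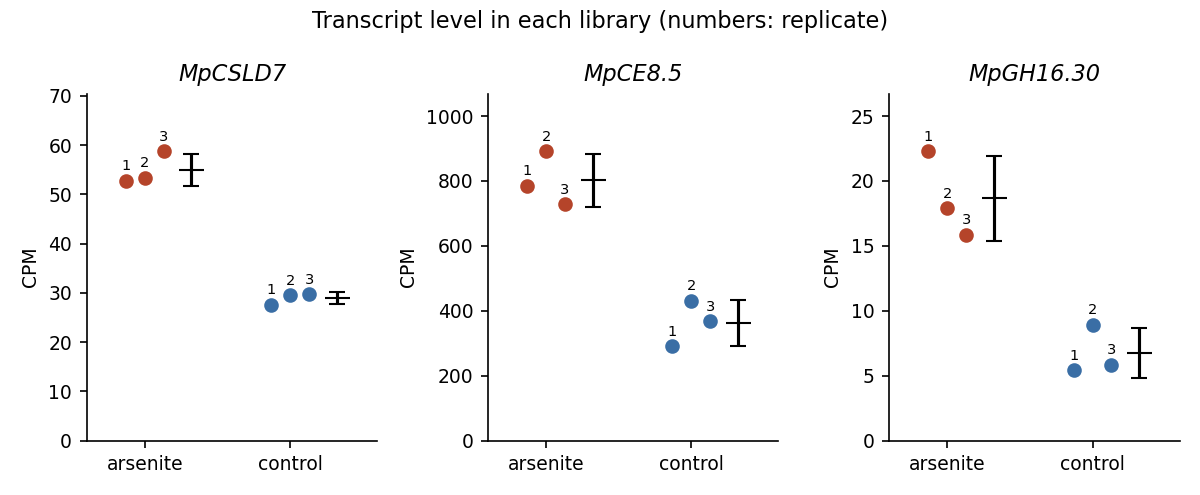
Level of MpCSLD7, MpCE8.5 and MpGH16.30 in CPM on a linear axis from 0, with 1 point per library numbered by replicate and the mean ± SD of 3 libraries beside each group. All 3 arsenite libraries lie above all 3 controls for each gene, most tightly for MpCSLD7.

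The genes differed in how much the replicates varied. The coefficient of variation of MpCSLD7 was 5.98% among arsenite libraries and 3.98% among controls, against 2.51% and 3.19% from read counting alone. Its control spread stood at the 12.9th percentile of the 4768 tested genes whose mean was within 2-fold of its own. Its arsenite spread stood at the 22.1th percentile of the same genes. MpCE8.5 varied by 10.3% with arsenite and 19.4% in controls, where counting gives only 0.660% and 0.902%. Its control spread stood at the 80.7th percentile of 483 genes of like mean, and its arsenite spread at the 36.6th. MpGH16.30 varied by 17.5% with arsenite and 28.7% in controls, with 4.35% and 6.67% from counting. Its control spread was at the 87.0th percentile of 3493 genes, and its arsenite spread at the 62.7th. Leaving out 1 library at a time gave log2 fold changes of 0.88 to 0.97 for MpCSLD7, 1.02 to 1.28 for MpCE8.5 and 1.35 to 1.73 for MpGH16.30.

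Among libraries of 1 treatment the 3 genes did not take the same order. With arsenite, MpCSLD7 was highest in replicate 3, MpCE8.5 in replicate 2 and MpGH16.30 in replicate 1. In controls, MpCE8.5 and MpGH16.30 were both highest in replicate 2 and lowest in replicate 1, at 1.19 and 0.800 times the control mean for MpCE8.5 and 1.33 and 0.804 times for MpGH16.30. MpCSLD7 stayed between 0.954 and 1.03 times its control mean.

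Each gene can be set against its own family, with shares of reads that depend on gene length and so are not shares of transcripts. Of reads on the 10 CSLD genes, MpCSLD7 took 2.48%, 2.39% and 2.00% in arsenite replicates 1, 2 and 3, against 1.59%, 1.22% and 1.31% in the controls, and the groups did not overlap. MpCE8.5 took 36.4%, 33.2% and 28.3% of reads on 13 CE8 genes with arsenite and 24.5%, 29.2% and 24.3% in controls. These shares overlapped, since the lowest arsenite library was below control replicate 2. MpGH16.30 took 0.824%, 0.594% and 0.561% of reads on 42 GH16 genes with arsenite and 0.301%, 0.388% and 0.268% in controls, with no overlap. Each share is built on the reads for which the member was chosen. The shares are therefore a description, and their separation is no separate finding.

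**Figure D2:**
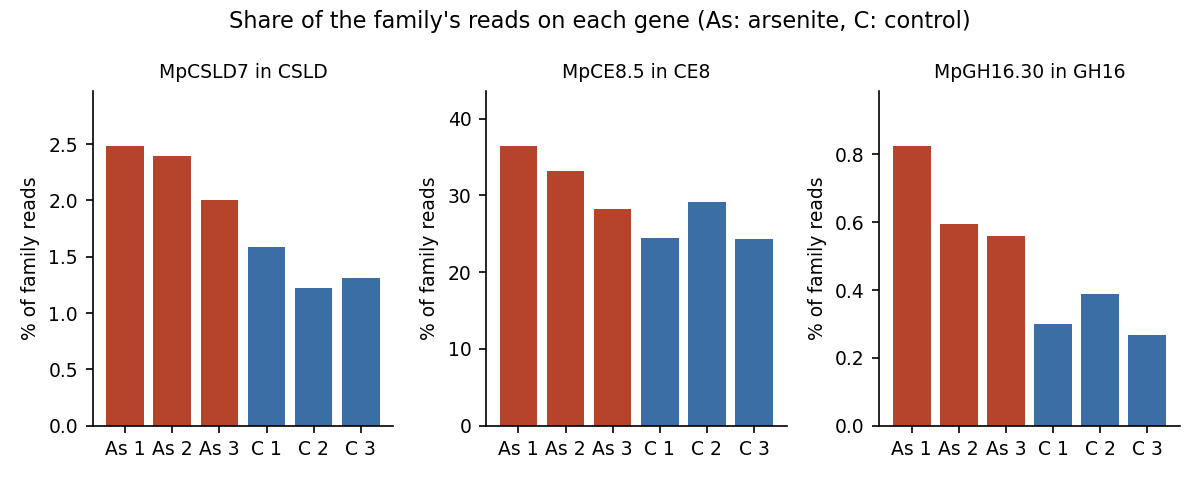
Percentage of the family's reads that fell on MpCSLD7, MpCE8.5 and MpGH16.30, with 1 bar per library, arsenite libraries left of the controls and each axis starting at 0. The shares of MpCSLD7 and MpGH16.30 are higher in all arsenite libraries, while for MpCE8.5 arsenite replicate 3 (28.3%) lies below control replicate 2 (29.2%). All were chosen for higher reads with arsenite, so the shares are a description.

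The other members of the 3 families show which wall genes moved beside them. They were tested in a fit across all 13544 genes with edgeR's quasi-likelihood test and Benjamini-Hochberg adjustment, used for every adjusted p below, at a threshold of 0.05. In that fit 276 genes were called higher with arsenite (2.04%) and 290 lower (2.14%). With no adjustment, p under 0.05 held for 10.8% of all tested genes higher and 10.3% lower. DESeq2 called 6.34% higher and 5.5% lower, and voom 1.99% and 1.93%. Counts by these measures below stand against these shares. Of 62 other CSLD, CE8 and GH16 genes 46 had enough reads to be tested, and 3 rose, 1 fell and 42 did not pass. This is 8.70% called in either direction, against 4.18% of all tested genes, and rests on 4 calls. Their median log2 fold change was 0.43, against -0.004 over all tested genes, with 32 values positive and 14 negative. The number of calls among these 46 was 0 in 4 of the 6 fits with a library left out (without arsenite replicate 2 or without any 1 control), 2 without arsenite replicate 1 and 5 without arsenite replicate 3.

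In the CSLD family, 1 of the 9 other tested genes rose and 0 fell. MpCSLD1 (Mp2g02440) had 55.6, 49.5 and 59.7 CPM with arsenite and 38.5, 33.6 and 34.9 CPM in controls, so the groups were apart. Its log2 fold change was 0.62 ± 0.11 (SE, adjusted p = 0.0342). The gene passed in 0 of 6 fits with a library left out, where its log2 fold change was 0.57 to 0.70. The family's reads were dominated by other genes: MpCSLD9 had 880, 1025 and 1087 CPM with arsenite and 758, 1270 and 1121 CPM in controls, and its groups overlapped (log2 fold change -0.07 ± 0.21, adjusted p = 0.869). MpCSLD3 had 654, 698 and 851 CPM with arsenite and 521, 662 and 664 CPM in controls (0.25 ± 0.16, adjusted p = 0.390). Summed over the 9 other genes, the family stood at 2379 ± 439 CPM with arsenite and 2112 ± 359 CPM in controls (SD, n = 3 each), and these sums overlapped.

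MpCSLD8 (Mp5g24550), which lies 2 genes from MpCSLD7 in the annotation, had a fold change of the same size but a different pattern over libraries. It had 93.5, 104 and 386 CPM in arsenite replicates 1, 2 and 3, against 90.0, 104 and 108 CPM in the controls. Only arsenite replicate 3 stood above the controls, and the gene did not pass (log2 fold change 0.95 ± 0.53, adjusted p = 0.348). Without that library the log2 fold change was -0.020. MpCSLD10 was likewise highest in arsenite replicate 3, at 369 CPM, with 199 and 199 CPM in the other arsenite libraries and 161, 199 and 184 CPM in controls (0.50 ± 0.25, adjusted p = 0.311).

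In the CE8 family, 0 of the 9 other tested genes passed with edgeR, and 5 were higher and 0 lower at an unadjusted p under 0.05. DESeq2 called 3 higher (MpCE8.3, MpCE8.7 and MpCE8.14) and voom called 0. MpCE8.7 (Mp3g01170), which like MpCE8.5 is read often, had 733, 1184 and 1071 CPM with arsenite and 541, 528 and 702 CPM in controls. The lowest arsenite library was just above the highest control (log2 fold change 0.76 ± 0.21, adjusted p = 0.0981). MpCE8.3 (Mp2g01420) had 399, 312 and 405 CPM with arsenite and 156, 290 and 197 CPM in controls (0.80 ± 0.23, adjusted p = 0.112). Of the 9 genes, 8 had positive fold changes and the median was 0.68. Summed CPM of the family without MpCE8.5 was 1673 ± 262 with arsenite and 1029 ± 124 in controls (SD, n = 3 each), and these sums did not overlap. Reads for 3 further CE8 genes were too few to test, with at most 12 in any library.

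MpCE8.14 (Mp8g09330) repeated the pattern of MpCSLD8: it had 18.5, 19.4 and 83.7 CPM in arsenite replicates 1, 2 and 3, and 8.20, 14.1 and 9.44 CPM in the controls. Here the 2 other arsenite libraries also lay above the controls (log2 fold change 1.94 ± 0.62, adjusted p = 0.133), and without arsenite replicate 3 the log2 fold change was 0.86. Of the 49 tested genes of the 3 families, MpCSLD8, MpCE8.8, MpCE8.14 and MpGH16.8 were more than 2-fold higher in arsenite replicate 3 than in the mean of the other arsenite libraries, and over all tested genes this held for 5.33%. Arsenite replicate 1 stood apart in more of these genes: 13 of the 49 were more than 2-fold above the mean of the other arsenite libraries there, against 2.67% of all tested genes. Of the 13, 11 were GH16 genes and 2 were MpCSLD2 and MpCSLD5. With a mean of more than 5 CPM in the arsenite libraries it was 7 of 37 family genes, against 1.48% of 10576 genes. For arsenite replicate 2 it was 0 of the 49, against 0.487% of all. MpGH16.30 was itself highest in arsenite replicate 1, at 1.32 times the mean of the other arsenite libraries, and without that library its log2 fold change was 1.35. Of the 29 tested GH16 genes, 17 were highest of the arsenite libraries in replicate 1, as were 36.7% of all tested genes. Arsenite replicate 3 held the highest arsenite value of MpCSLD7, 58.7 CPM, and the lowest of MpCE8.5, 729 CPM. The genes in these comparisons of libraries, and the limit of 5 CPM, were picked out after their values were seen.

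In the GH16 family, 2 of the 28 other tested genes rose, 1 fell and 25 did not pass. MpGH16.42 (Mp8g18980) had 839, 967 and 737 CPM with arsenite and 281, 461 and 416 CPM in controls, with the groups apart (log2 fold change 1.13 ± 0.21, adjusted p = 0.0340). MpGH16.40 (Mp7g16080) had 302, 300 and 293 CPM with arsenite and 226, 167 and 193 CPM in controls (0.61 ± 0.13, adjusted p = 0.0476). MpGH16.22 (Mp3g20360) fell to 1.21, 0.372 and 0.538 CPM with arsenite, against 9.16, 3.55 and 3.98 CPM in controls (-2.97 ± 0.57, adjusted p = 0.0387). With 1 library left out, fits in which the calls over all genes fell to between 39 and 461, MpGH16.40 passed in 0 of 6, MpGH16.42 only without arsenite replicate 3 and MpGH16.22 only without arsenite replicate 1. Their directions held in all 6, with log2 fold changes of 0.51 to 0.74 for MpGH16.40 and 0.96 to 1.28 for MpGH16.42. The log2 fold change of MpGH16.22 was -3.60 without arsenite replicate 1 and -2.39 without control replicate 1. At an unadjusted p under 0.05, 10 of the 28 were higher and 3 lower, and 13 further GH16 genes had too few reads to be tested. Summed CPM without MpGH16.30 was 2830 ± 157 with arsenite and 2086 ± 263 in controls (SD, n = 3 each), and these sums did not overlap. MpGH16.42 alone held a mean of 847.5 CPM of this with arsenite and 386.2 CPM in controls.

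**Figure D3:**
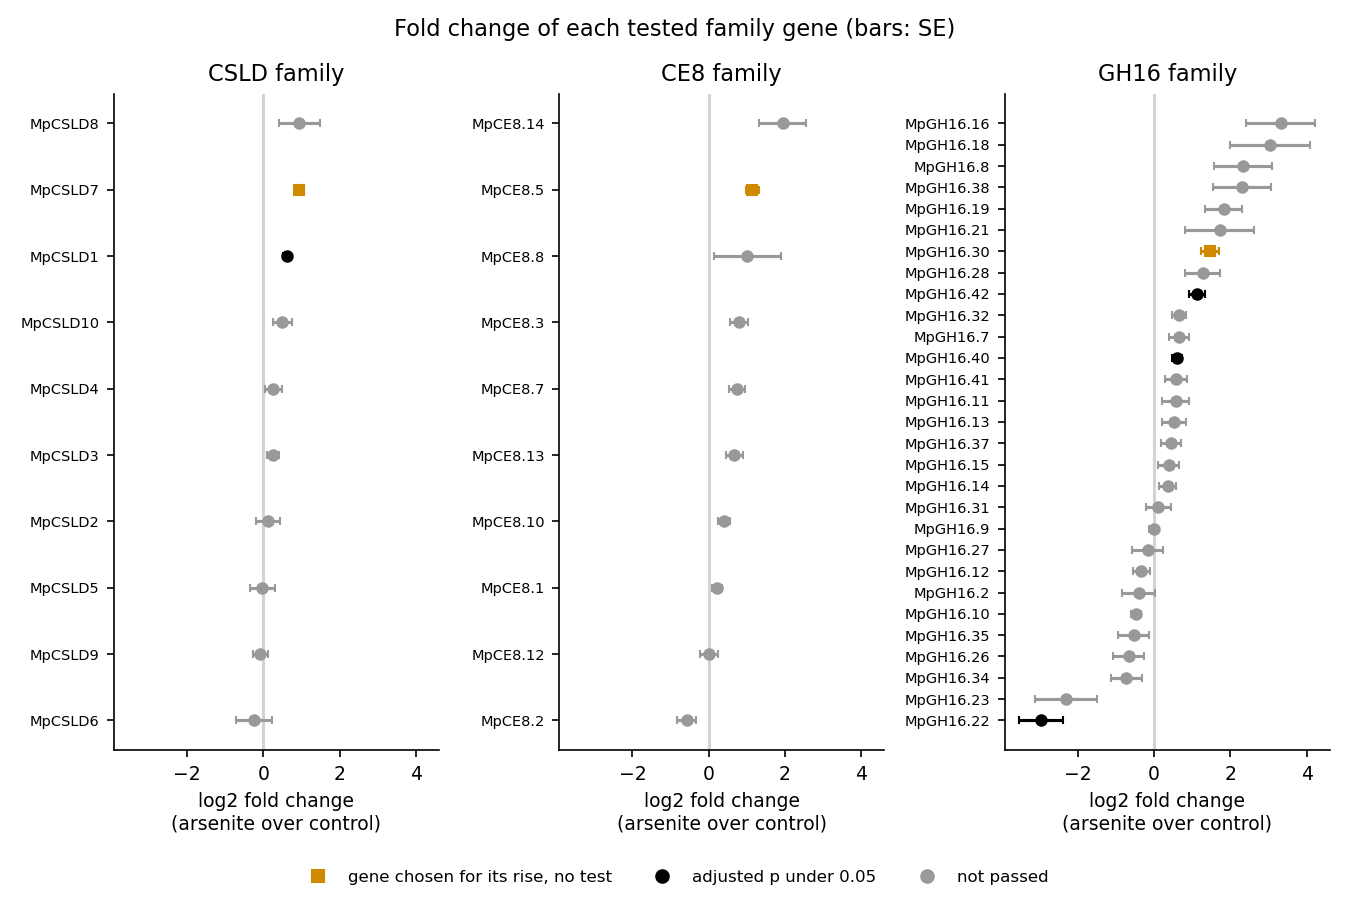
Log2 fold change (arsenite over control) with SE for each tested gene of the CSLD, CE8 and GH16 families, on 1 common axis. Squares mark MpCSLD7, MpCE8.5 and MpGH16.30, black points the 4 genes that passed and grey points those that did not. MpGH16.30 stands among several GH16 genes with larger but less precise values, up to 3.32 ± 0.90 for MpGH16.16.

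MpGH16.30 is the last of 4 GH16 genes that follow each other in the annotation, and such neighbouring copies may share reads, as it is not stated how reads that match several copies were counted. Its nearest copy, MpGH16.29 (Mp4g00680), had 24, 28 and 6 reads with arsenite and 0, 1 and 2 reads in controls. That was too few for the low-count filter. In the fit without the filter its log2 fold change was 4.31 ± 0.93 (SE, adjusted p = 0.0472). MpGH16.28 had 0.638, 0.440 and 0.346 CPM with arsenite and 0.123, 0.268 and 0.220 CPM in controls, and did not pass (1.27 ± 0.47, adjusted p = 0.182). MpGH16.27, the first of the run, had 0.702, 0.609 and 0.922 CPM with arsenite and 1.25, 0.612 and 0.596 CPM in controls, and these overlapped (-0.17 ± 0.40, adjusted p = 0.847). Reads summed over the 4 genes were 764, 588 and 452 with arsenite and 331, 258 and 214 in controls, of which MpGH16.30 held the most in each library.

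Of the tested genes around the 3, 1 passed with edgeR. No neighbour within 4 genes on either side had a span that overlaps a member in the annotation. Around MpCSLD7, 0 of 8 neighbours passed with any of edgeR, DESeq2 and voom. With edgeR 2 of the 8, Mp5g24490 and Mp5g24540, were higher at an unadjusted p under 0.05. Apart from MpCSLD8, log2 fold changes of these neighbours ran from -0.13 to 0.26. The genes on either side of MpCSLD7, Mp5g24520 and Mp5g24540, had 89.5 ± 7.62 and 142 ± 6.72 CPM with arsenite and 96.3 ± 5.43 and 119 ± 11.1 CPM in controls (SD, n = 3 each). Around MpCE8.5, 1 of 8 passed with edgeR, 5 had an unadjusted p under 0.05, and DESeq2 called 4 and voom 2. Of those 5, Mp2g19500 was lower and the others higher. Mp2g19500 had 20.3 ± 1.16 CPM with arsenite and 28.4 ± 2.03 CPM in controls (log2 fold change -0.49 ± 0.11, adjusted p = 0.0613). The gene that passed, Mp2g19470, with no symbol, had 204 ± 17.4 CPM with arsenite and 136 ± 6.53 CPM in controls (log2 fold change 0.58 ± 0.10, adjusted p = 0.0324), and lost its call in 5 of the 6 fits with a library left out, at log2 fold changes of 0.53 to 0.67. Mp2g19460, the next gene to MpCE8.5 on that side, had 7.27 ± 0.801 CPM with arsenite and 2.92 ± 1.13 CPM in controls (1.32 ± 0.30, adjusted p = 0.0573). Near MpGH16.30, 0 of 4 tested neighbours passed with any of these tools, and only MpGH16.28, 1 of the 4, had an unadjusted p under 0.05 with edgeR. Mp4g00710 had 1447 ± 179 CPM with arsenite and 1764 ± 163 CPM in controls (-0.29 ± 0.15, adjusted p = 0.318).

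**Figure D4:**
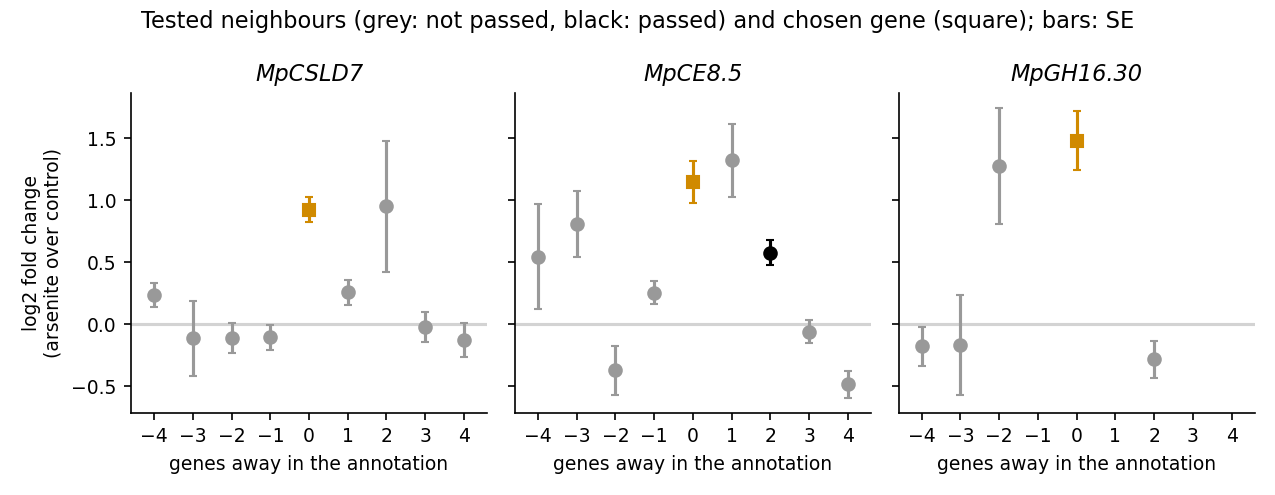
Log2 fold change (arsenite over control) with SE for tested genes up to 4 places away in the annotation from MpCSLD7, MpCE8.5 and MpGH16.30, which are drawn as squares at 0. The black point, Mp2g19470 at 0.58, is the 1 neighbour that passed, and MpGH16.29, 1 place before MpGH16.30, is not drawn because it had too few reads.

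Other single families that build or loosen the wall had few calls with edgeR. Of 27 tested expansins, proteins that loosen walls without cutting their chains, 0 passed with edgeR, while 7 were higher and 2 lower at an unadjusted p under 0.05. DESeq2 called 4 higher and 2 lower, and voom 0. Their median log2 fold change was 0.52, with 22 positive and 5 negative. Among enzymes that act on pectin after its methyl groups are removed, 0 of 4 polygalacturonases (GH28) and 0 of 4 pectate lyases (PL1) passed with edgeR or voom. MpGH28.7 was the 1 gene of these that was higher at an unadjusted p under 0.05 and with DESeq2, at 198, 215 and 233 CPM with arsenite and 153, 163 and 165 CPM in controls (log2 fold change 0.43 ± 0.10, adjusted p = 0.0650). Of 2 CE13 pectin acetylesterases 0 passed with edgeR or voom, and MpCE13.1 was lower at an unadjusted p under 0.05 and with DESeq2 (log2 fold change -1.09 ± 0.24, adjusted p = 0.0547).

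Of 11 tested genes of family GT8, which includes the enzymes that make homogalacturonan, 1 rose and 0 fell. MpGT8.7 (Mp3g04920) had 143, 148 and 151 CPM with arsenite and at most 111 CPM in any control. Its log2 fold change was 0.48 ± 0.09 (SE, adjusted p = 0.0353), and it lost its call in 6 of 6 fits with a library left out, at log2 fold changes of 0.45 to 0.52. Callose synthases (GT48) and GH17 glucanases had 0 of 3 and 0 of 22 genes called with edgeR, DESeq2 or voom. At an unadjusted p under 0.05, 1 GT48 gene was higher, and 3 GH17 genes were higher and 1 lower. The remaining GH and GT genes with a symbol, of many functions, had 4 higher and 6 lower of 117 tested. That is 8.55% called in either direction, against 4.18% of all tested genes and 8.70% of the other CSLD, CE8 and GH16 genes. This list was made by symbol alone. It takes in MpGH91 to MpGH97, which may be genes of family GH9, and MpGH3A and MpGH3B, whose symbols may stand for another family. MpGH93 was among the genes called higher (0.50 ± 0.10, adjusted p = 0.0488), also with DESeq2 but not with voom, and MpGH91, MpGH92, MpGH95 and MpGH97 did not pass. MpGH19.2 (Mp2g24410), of the chitinase family GH19, rose to 38.2, 40.4 and 47.5 CPM with arsenite, against 20.5, 21.0 and 22.6 CPM in controls (0.98 ± 0.12, adjusted p = 0.0127). Without arsenite replicate 2 and without control replicate 1 its adjusted p was 0.0661 and 0.0574. MpGH3.6 (Mp5g15680) had 0 reads in all arsenite libraries and 305 reads over the controls, at least 82.7-fold lower with arsenite when 3 reads over the group are taken as the floor (adjusted p = 0.0104). No gene with a cellulose synthase (CESA) or pectin methylesterase inhibitor symbol is in the table of names, so these were not analysed here.

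The genes with a symbol whose profile over the 6 libraries was most like each member were found by the root-mean-square distance between log2 CPM profiles set to 0 at the control mean, among 2127 genes with a mean of at least 5 CPM. Closest to MpCSLD7 was MpGH19.2 at a distance of 0.0639 log2 units, followed by MpCRY-DASH (a cryptochrome), MpMATE6 (a transporter of the MATE family), MpFAE3 (fatty acid elongation) and MpPMT.5 at 0.114 to 0.156. Closest to MpCE8.5 was MpGH16.42, of the GH16 family, at 0.0725, followed by MpBHLH30 (a transcription factor of the bHLH family), MpGH18.8 (a glycoside hydrolase), MpPMT.5 and MpFAD9 (a fatty acid desaturase) at 0.106 to 0.216. Closest to MpGH16.30 were MpCupin84 at 0.159 and MpGPAT6c (an acyltransferase of the cutin pathway), MpPTB4 (placed among phosphate transporters), MpTIP2 (an aquaporin) and MpCupin70 at 0.185 to 0.252. Distances between the members were 0.249 for MpCSLD7 and MpCE8.5, 0.299 for MpCE8.5 and MpGH16.30, and 0.487 for MpCSLD7 and MpGH16.30. The nearest genes are the smallest distances among 2127 candidates. Nothing is therefore read from the members lying farther apart than these. MpPMT.5 is on the lists of both MpCSLD7 and MpCE8.5, and no gene is on all 3. MpCupin84 and MpCupin70 did not pass (adjusted p = 0.0533 and 0.0912), while the other genes on these lists did, each losing its call in 2 to 5 of the 6 fits with a library left out. All were selected for likeness to genes that were higher with arsenite, so these calls are no separate finding.

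**Figure D5:**
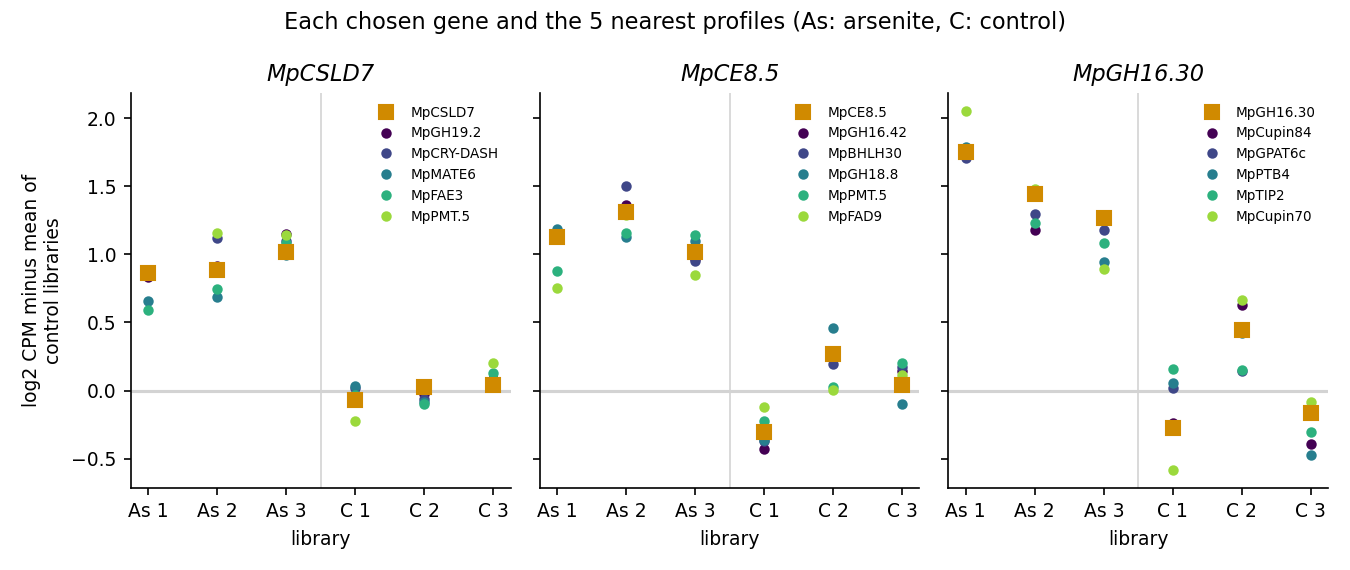
Log2 CPM minus the mean of the control libraries, in each of the 6 libraries, for MpCSLD7, MpCE8.5 and MpGH16.30 (squares) and the 5 genes nearest to each (circles). MpGH16.42 follows MpCE8.5 at a distance of 0.0725, with both highest in arsenite replicate 2 and lowest in control replicate 1.

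Library totals ran from 26579324 to 31573867 reads with arsenite and from 26691102 to 47532310 reads in controls. In bulk thallus, fewer cells of a type and less RNA per cell cannot be told apart. The list for rhizoids and tip growth, the kind of growth in which CSLD enzymes act in Arabidopsis root hairs, held MpBHLH14, MpROP, MpKAR and MpPRR. It summed to 410 to 537 CPM with arsenite and 425 to 457 CPM in controls. Most of each sum lay on MpROP (177 to 203 and 178 to 209 CPM) and MpPRR (176 to 257 and 188 to 234 CPM). These may not be particular to rhizoids, so the sum is not a measure of rhizoid content. Of these 4 genes 0 passed with edgeR or voom, and DESeq2 called MpBHLH14 (listed also as MpRSL1) higher, the 1 with an unadjusted p under 0.05 (log2 fold change 0.62, adjusted p = 0.0533). MpBHLH14 had 19.5, 19.9 and 22.8 CPM with arsenite and 13.6, 12.1 and 14.8 CPM in controls. The log2 fold changes of MpROP, MpKAR and MpPRR were -0.02, 0.23 and 0.04. Of 5 oil body markers 2 fell, MpSYP12B and MpABCG1. The list summed to 44.3 to 74.5 CPM with arsenite and 81.6 to 117 CPM in controls. Its largest part in each library was MpC1HDZ, at 29.3 to 49.3 CPM with arsenite and 40.4 to 66.3 CPM in controls. MpC1HDZ overlapped between the groups and did not pass (edgeR adjusted p = 0.253). All 5 markers had negative log2 fold changes. Voom also called 2 of them lower, DESeq2 called 3, and 3 had an unadjusted p under 0.05. Of tested genes listed for gemma cups and meristem 0 of 6 passed with edgeR, DESeq2 or voom, and 1 was higher at an unadjusted p under 0.05. MpNOP1 and MpTDR, the 2 genes listed for air pores, did not pass with any of these tools, and 0 had an unadjusted p under 0.05. MpTDR may not be particular to air pores. Sexual organ markers were low, with sums of 8.56 to 17.6 CPM with arsenite and 17.4 to 22.3 CPM in controls, 1 of 3 tested fell (also with DESeq2 and voom, and 2 were lower at an unadjusted p under 0.05), and MpLC7 and MpPRM were at or near 0. MpRBCS, the only gene taken for photosynthetic tissue, had 62.5 to 101 CPM with arsenite and 40.1 to 68.7 CPM in controls and did not pass. As 1 gene it does not stand for that tissue as a whole. The part of such cell types in the levels of MpCSLD7, MpCE8.5 and MpGH16.30 was not tested.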

How the data were processed

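The authors deposited, for each sample, a table of raw read counts by gene, made with htseq-count on Galaxy per the file names. The sources used here state no aligner, version, genome build, annotation, strand setting or rule for reads that match several genes. Reads of overlapping genes on opposite strands therefore cannot be told apart. Symbols and gene order were taken from the MpTak2_v7.1 gene table, where 17671 of 18391 locus tags (96.1%) matched a counted ID. The counted IDs numbered 19472, and those without a match have no symbol or position here. Neighbours and runs follow that table alone, so an unmatched ID may lie between them. No coordinates or sequences are printed, because the build is not given and no sequence table was used here.

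Counts were tested with edgeR 4.0.16 in R 4.3.3 (TMM, the default low-count filter by group, Benjamini-Hochberg adjustment over 13544 genes, threshold 0.05). Standard errors are the fold change divided by the root of F. CPM were computed from the deposited counts, and log2 CPM used a prior count of 2. Alternatives were other scalings, no filter, DESeq2 1.42.0, voom in limma 3.58.1, a replicate block, a threshold of 0.01, and 1 library left out at a time. The procedure was also run on simulated counts in which all genes had 1 common spread. That run does not cover genes of differing spread or single libraries that stand apart, as found here. No 2 libraries of a group agreed within sampling noise (lowest chi-square per degree of freedom 39.4).

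The members and lists were chosen with earlier results of these data known. Named by rule were the called genes of the CSLD, CE8 and GH16 families, up to 2 called genes of each further list, neighbours and nearest profiles. Other family genes were named after their values were seen. Levels per coding length and the closest protein sequences, both planned, were not used here, so levels are not ranked between genes.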

Additional observations from a re-analysis of the deposited data

How the results depend on the processing

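In 13 alternatives the log2 fold changes of MpCSLD7, MpCE8.5 and MpGH16.30 were 0.88 to 0.97, 1.02 to 1.28 and 1.35 to 1.73. They stayed positive and moved by less than the spread between replicates. Every arsenite library of these genes lies above every control, so leaving out 1 library could not change the sign. Dropping 1 of so few libraries also moves a mean little against that spread. Nothing is therefore read from this stability. The count of called genes, 566, became 57 at a threshold of 0.01, 1598 with DESeq2 and 364 with a replicate block, and ran from 39 to 461 with 1 library left out. The 4 calls among other CSLD, CE8 and GH16 genes became 0 at a threshold of 0.01 and 13 with DESeq2 (10 higher, 3 lower), and ran from 0 to 5 with 1 library left out. With the replicate block they were 3 (1 higher, 2 lower), though the sources used here do not say that same-numbered samples form pairs. Deviations of same-numbered libraries correlated by 0.00836, -0.111 and 0.187, and those of differently numbered libraries by -0.453 to 0.408. With so few libraries in a group, such correlations cannot show whether samples were paired. With 1 library left out, the log2 fold change of MpCSLD8 ran from -0.020 (without arsenite replicate 3) to 1.31, that of MpGH16.27 from -0.35 to 0.31 (without control replicate 1), and that of MpCSLD9 from -0.24 to 0.085 (without control replicate 2, and 0.031 without arsenite replicate 1), so that each changed sign. None of these 3 genes passed in any alternative, and the causes were not tested. Nearest profiles kept 15 of 15 genes with a prior count of 0.5 and 12 of 15 when centred on all libraries. Genes under the low-count filter, such as MpGH16.29, are limited by depth.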

Other observations

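GH16 genes also stand in other runs. Described here are 2 runs of consecutive genes whose read counts differed in opposite directions, singled out after their values were seen. MpGH16.34 to MpGH16.37, whose IDs also follow each other, were mixed. MpGH16.34 and MpGH16.35 had log2 fold changes of -0.73 ± 0.41 and -0.53 ± 0.40 (SE), and MpGH16.37 had 0.44 ± 0.27. None of them passed (edgeR adjusted p = 0.36, 0.49 and 0.38), and MpGH16.36 had too few reads to be tested. In the run MpGH16.16 to MpGH16.21, all 4 of the 6 genes that could be tested had positive fold changes and 0 passed. MpGH16.19 (Mp3g10420), the most read of them, had 24.1, 14.6 and 7.53 CPM in arsenite replicates 1, 2 and 3, and 3.28, 6.96 and 2.92 CPM in the controls (log2 fold change 1.82 ± 0.50, edgeR adjusted p = 0.0947, and called by DESeq2). Reads summed over the run were 1227, 849 and 266 with arsenite and 170, 248 and 122 in controls. The highest library was arsenite replicate 1, as it was for MpGH16.30.

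The run MpGH16.22 to MpGH16.25 had 130, 20 and 37 reads with arsenite and 1106, 213 and 279 reads in controls. MpGH16.22 fell, as described above, and MpGH16.23 (Mp3g20370) had 2.87, 0.237 and 0.884 CPM with arsenite and 11.5, 4.13 and 4.36 CPM in controls without passing (log2 fold change -2.32 ± 0.82, adjusted p = 0.168, edgeR). MpGH16.24 had 0 reads in every arsenite library and 61, 11 and 8 reads in the controls, at least 21.7-fold lower with arsenite at a floor of 3 reads over the group, and in the fit without the low-count filter its adjusted p was 0.0550. Control replicate 1 held most of these reads. Reads shared between neighbouring copies cannot be traced here.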
